A study of Mus musculus with 8 samples.

Results

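The Notch pathway genes described here were the 10 rows of the HTSeq count table, of 27036 genes in all, whose symbols are Notch1, Notch2, Notch3, Notch4, Jag1, Jag2, Dll1, Dll4, Hes1 and Hey1. Bulk RNA was sequenced from mouse prostate tissue in 8 libraries of 3 groups. WT was 3 normal prostates, which the study's figure text gives as R26 mTmG/+:Osr1 Cre/+ mice, matched for sex and age to the mice with lesions. PIN, prostatic intraepithelial neoplasia, was 3 lesions, and PCa, prostatic adenocarcinoma, was 2 tumors, both from R26 mTmG/hAR:Osr1 Cre/+ mice, labelled hARtg-Osr1Cre. All 3 groups therefore carried the mTmG reporter and the Osr1-driven Cre, and PIN and PCa differed from WT in a human androgen receptor transgene that the same Cre switches on in cells of the Osr1 lineage. Lesions were chosen by microscopy for a majority of atypical or tumor cells, and the ages of these 8 samples are not given in the sources used here. The transgene is not a gene of the mouse table, so its level was not analysed here. The labels do not name the animal behind each library, so p-values measure the spread between these samples.

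Notch receptors are single-pass membrane proteins that bind Jagged or Delta-like ligands on neighbouring cells. Binding lets an ADAM protease and then the gamma-secretase complex release the intracellular domain, which joins the DNA-binding protein RBPJ in the nucleus and switches on genes such as Hes1 and Hey1, which encode repressors. In the prostate the pathway is known for roles in the balance of basal and luminal epithelial cells, and in blood vessels Notch4 and Dll4 are known as endothelial genes and Notch3 as a gene of mural cells.

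The 2 Jagged ligand genes are introduced with the sequence before their start sites, since Jag1 was the only one of the 10 genes that edgeR called in a tumor comparison and Jag2 was the ligand gene with the highest level per length in WT. Both lie on the minus strand, Jag1 (ENSMUSG00000027276) at chr2:136907192-136942380 and Jag2 (ENSMUSG00000002799) at chr12:114146801-114167706 in mm9. The bases come from the RefSeq promoter table of GRCm38.p6, which held 8 of the 10 genes and did not list Hes1 or Hey1, and each was placed on mm9 by an exact match. Capitals mark CG dinucleotides, and bases inside the annotated gene were left out. The stretch for Jag1 is the 126 bases at chr2:136942381-136942506 and that for Jag2 the 250 bases at chr12:114167707-114167956, each 5' to 3' on the minus strand.
Jag1: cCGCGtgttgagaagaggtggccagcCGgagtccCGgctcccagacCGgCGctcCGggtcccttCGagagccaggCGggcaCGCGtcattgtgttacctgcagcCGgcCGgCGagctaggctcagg
Jag2: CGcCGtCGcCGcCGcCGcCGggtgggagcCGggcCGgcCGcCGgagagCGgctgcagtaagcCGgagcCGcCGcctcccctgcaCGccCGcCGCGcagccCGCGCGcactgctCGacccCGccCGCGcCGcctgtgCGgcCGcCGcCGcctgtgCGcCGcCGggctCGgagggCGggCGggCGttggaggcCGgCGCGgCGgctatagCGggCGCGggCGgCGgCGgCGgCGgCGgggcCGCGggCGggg
The full 250-base windows held 20 CG dinucleotides and 57.2% G or C for Jag1, and 54 CG dinucleotides and 87.2% for Jag2, against medians of 6 and 52.4% over the 32851 windows of the table. The RBPJ core TGGGAA, searched on both strands, was in none of the 250-base windows of the 8 genes and in 21.6% of all windows. The E-box CACGTG was also in none of them and in 6.02% of all windows. The N-box CACNAG, a Hes-type site, was in the windows of 4 of the 8 genes, Notch1, Notch2, Notch3 and Dll4, and in 36.7% of all windows. A match is a run of letters in this window and was not tested for binding.

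The libraries held 21751803 to 29730420 counts in WT, 27421827 to 28517421 in PIN and 23527628 and 24457124 in PCa. WT 2 stood apart from the other WT libraries, and the 2 tumors stood apart from each other. In WT 2, 9 of 10 endothelial markers were at their lowest of the 8 libraries, while Emcn was at its highest, at 54.2 CPM (counts per 1000000) against 9.20 to 34.3 CPM elsewhere. The 10 markers summed to 35.9 TPM in WT 2 against 71.4 and 86.4 TPM in the other WT libraries. TPM are transcripts per 1000000, a level per length that was not adjusted by normalization factors. Without Emcn, left out after its values were seen, the sums were 10.9 against 49.95 and 73.7 TPM. The luminal markers of WT 2 summed to 16010 TPM against 7177 and 8359. In PCa 2, 5 of 6 basal markers were at their lowest, with a sum of 41.3 TPM, and in PCa 1 5 of 6 were at their highest, with a sum of 1309 TPM, against 274 to 660 TPM in WT and PIN. Secretory products of the prostate summed to 72210 to 105537 TPM in WT and PIN and to 525 and 1549 TPM in PCa, and smooth muscle markers to 2018 to 7262 TPM and to 76.3 and 35.9 TPM. In bulk tissue, fewer cells of a type and less RNA per cell cannot be told apart. The library numbers in the labels fall into 3 series, WT 1, then WT 2 and WT 3, then all PIN and PCa libraries. If these mark batches, an effect of batch on the WT comparisons and one of condition cannot be told apart.

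In mm9, the receptor genes lie at chr2:26313423-26372183 (Notch1, minus strand), chr3:97817461-97954290 (Notch2, plus strand), chr17:32257765-32303825 (Notch3, minus strand) and chr17:34701213-34725448 (Notch4, plus strand). Dll1 lies at chr17:15504318-15513836 (minus strand) and Dll4 at chr2:119151520-119161698 (plus strand). The target genes lie at chr16:30064470-30067882 (Hes1, plus strand) and chr3:8663362-8667039 (Hey1, minus strand). The values are counts over the whole gene, and all 10 are annotated as protein coding. All 10 passed the filter of more than 1 CPM, before any normalization factor, in at least 2 libraries. The CPM values printed are adjusted with trimmed-mean-of-M-values factors. The 10 were tested among 14034 genes in edgeR's quasi-likelihood F-test, and a gene was called where the log2 fold change was beyond 1 in size and the Benjamini-Hochberg adjusted p was under 0.05.

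**Figure D1:**
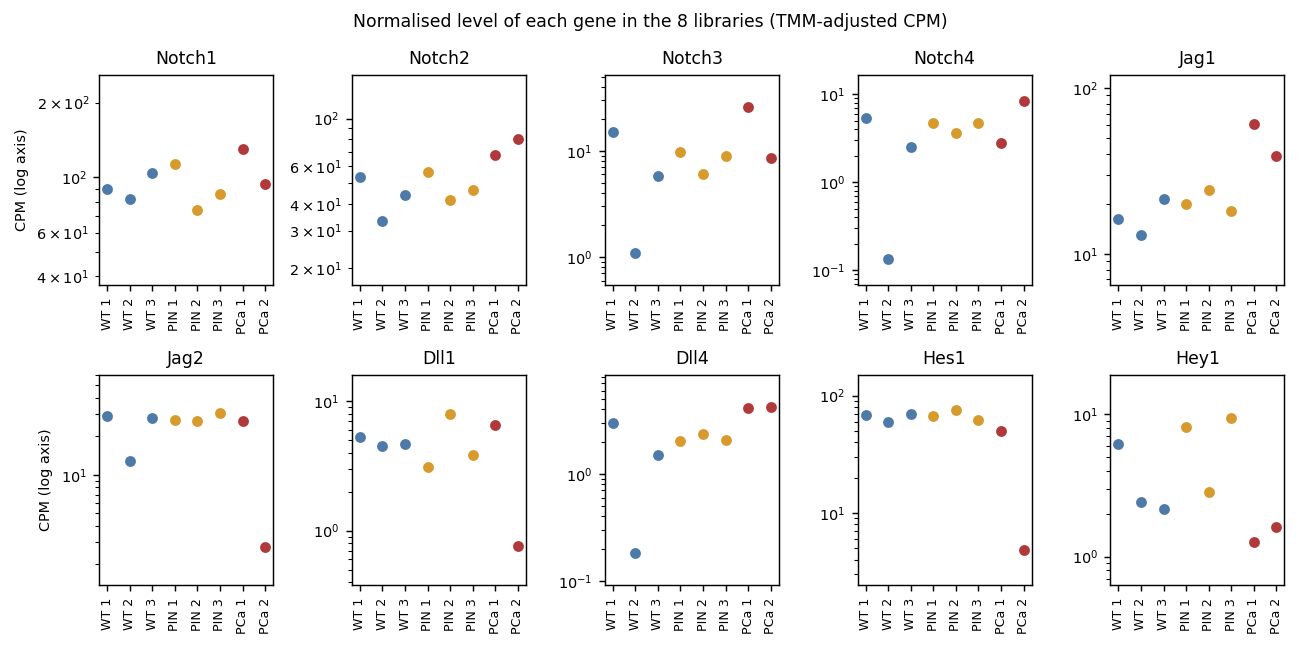
Each panel is 1 gene, with the 8 libraries on the x axis and normalised CPM on a log y axis whose range differs by panel. Points are single libraries, blue for WT, orange for PIN and red for PCa. Both PCa points lie above all others for Notch2, Jag1 and Dll4 and below all others for Hes1 and Hey1, and PCa 2 is far below PCa 1 for Jag2, Dll1 and Hes1.

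The first comparison asked whether the Notch genes already differed from normal prostate in PIN. None of the 10 genes was called in either direction, and none had all PIN libraries outside the WT range. Over all genes tested, the percentage called was 0, the percentage with every PIN value above the WT range was 6.48, and the percentage below it was 6.38. Adjusted p was 1 for each of the 10 genes in edgeR's test, 0 of them had an unadjusted p under 0.05, and 492 of all 14034 genes did. DESeq2 and limma-trend also called 0 of the 10, where they called 0.278% and 0.00713% of all genes. The log2 fold changes ran from -0.02 for Notch1 to 0.93 for Hey1 with a median of 0.21, against -0.02 over all genes, and 9 of the 10 were above 0, as were 48.0% of all genes. These rested on WT 2: without it 3 of the 10 were above 0 and the median was -0.02.

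The receptors Notch1 and Notch2 were close in PIN and WT. Notch1 was at 90.2, 82.1 and 103.7 CPM in WT and at 113.1, 73.9 and 85.7 CPM in PIN. Notch2 was at 53.1, 33.4 and 43.8 CPM in WT and at 56.4, 41.8 and 46.2 CPM in PIN. The groups overlapped for both, with log2 fold changes of -0.02 (SE 0.23) and 0.15 (SE 0.23).

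Jag1 was at 16.1, 12.96 and 21.3 CPM in WT and at 20.1, 24.3 and 18.1 CPM in PIN. Jag2 was at 29.1, 12.9 and 27.9 CPM in WT and at 26.7, 26.5 and 30.2 CPM in PIN. Both ligand genes overlapped between the groups, and the lowest Jag2 value was that of WT 2. The log2 fold changes were 0.31 (SE 0.27) for Jag1 and 0.26 (SE 0.69) for Jag2. Dll1, which encodes a Delta-like ligand, was at 5.34, 4.49 and 4.69 CPM in WT and at 3.10, 8.02 and 3.88 CPM in PIN, where PIN spread to both sides of WT.

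Hes1, a repressor gene that Notch signals induce, varied little over WT and PIN. It was at 68.0, 59.7 and 69.8 CPM in WT and at 66.3, 75.05 and 61.5 CPM in PIN. Hey1, a related repressor gene, was at 6.13, 2.40 and 2.16 CPM in WT and at 8.10, 2.82 and 9.42 CPM in PIN. PIN 1 and PIN 3 were above every WT library for Hey1 and PIN 2 was within the WT range, and the log2 fold change was 0.93 (SE 0.60), with 0.62 without PIN 3 to 1.57 without WT 1. The summed basal markers were also higher in PIN 1 and PIN 3, at 660 and 645 TPM, than in PIN 2 at 303 TPM and in WT at 274 to 303 TPM. Krt15 held 424 and 356 TPM of the PIN 1 and PIN 3 sums, and the list did not move as 1. Krt5 was above every WT library in both, at 86.8 and 122 CPM. Krt14 was below WT 2 in both (17.7 and 26.2 against 54.7 CPM), and Trp63 was lower in PIN 1 than in PIN 2 (38.3 against 39.8 CPM). The part of basal cells in the Hey1 level was not tested.

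Notch3, Notch4 and Dll4 had their lowest value of all 8 libraries in WT 2. Notch3 was at 14.9, 1.09 and 5.82 CPM in WT and at 9.68, 5.99 and 8.85 CPM in PIN. Notch4 was at 5.39, 0.136 and 2.53 CPM in WT and at 4.72, 3.62 and 4.75 CPM in PIN. Dll4 was at 2.97, 0.181 and 1.501 CPM in WT and at 2.02, 2.34 and 2.07 CPM in PIN. The counts behind the WT 2 values were 24, 3 and 4, with exact Poisson 95% intervals of 15.4 to 35.7, 0.619 to 8.77 and 1.09 to 10.2 that cover counting error only. Of the 10 endothelial markers, 9 were also lowest in that library and Emcn was highest, and the mural markers summed to 11.4 TPM there against 65.7 and 79.9 TPM in the other WT libraries. The part of these cell types in the 3 genes' levels was not tested. For each of the 3 genes, the values of PIN lay between those of WT 2 and WT 1.

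**Figure D2:**
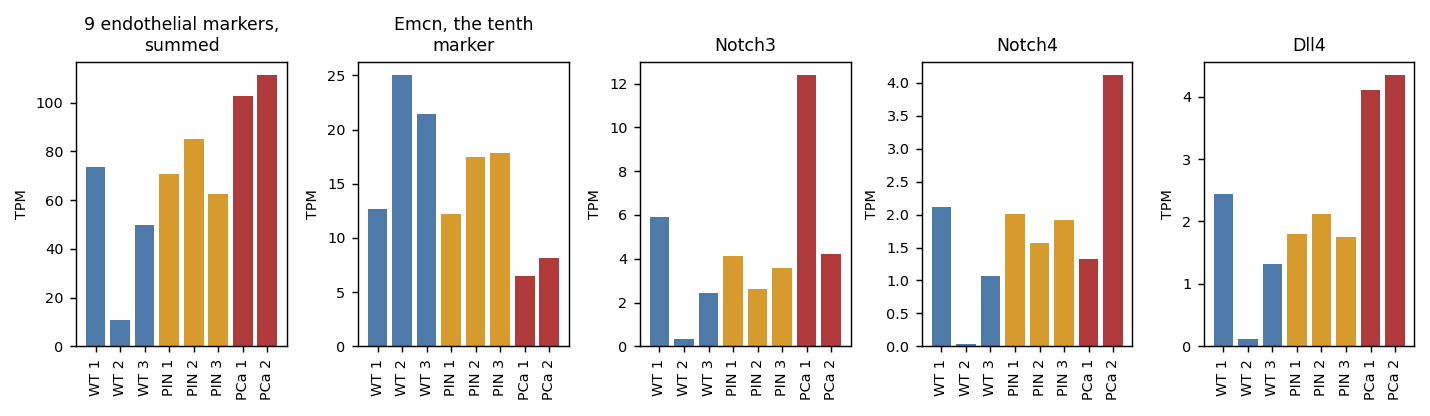
Bars are single libraries, with TPM on linear y axes that start at 0. The first panel sums 9 endothelial markers, the second shows Emcn, the tenth, and the others show Notch3, Notch4 and Dll4. WT 2 is the lowest bar in each panel except that of Emcn, where it is the highest. In PCa the sums of the 9 were 103 and 111 TPM and those of all 10 were 109 and 119 TPM, and the Dll4 bars of both tumors stand above those of WT and PIN.

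The second comparison, PCa against WT, asked how the tumors differed from normal prostate. Jag1 was the only one of the 10 genes called, and it rose. In this comparison 8.54% of all genes were called, so 1 of 10 is close to the background. Both tumors lay above the WT range for 3 of the 10, Notch2, Jag1 and Dll4, where 17.7% of all genes did, and both lay below it for 2, Hes1 and Hey1, where 19.6% did. The median log2 fold change of the 10 was 0.53 against 0.01 over all genes, with 6 above 0 and 4 below. With 1 library left out, the median of the 10 ran from 0.14 without PCa 1 to 0.61 without WT 1. Without normalization factors the median of all genes moved up by 0.55 in this comparison, by 0.19 in PIN against WT and by 0.35 in PCa against PIN, and the changes are given relative to the trimmed-mean scale.

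Jag1, the ligand gene of the Jagged kind that was second to Jag2 in WT, was at 60.1 and 39.0 CPM in the tumors, above the 12.96 to 21.3 CPM of WT and the 18.1 to 24.3 CPM of PIN. The log2 fold change against WT was 1.56 (SE 0.30, edgeR adjusted p = 0.0236). Its direction was the same in all 15 alternatives, with log2 fold changes of 1.23 to 2.098 and adjusted p of 8.67e-05 to 0.107. The call held without WT 2 (1.41, adjusted p = 0.0439), with PCa 2 as the only tumor (1.23, adjusted p = 0.0404) and with PCa 1 as the only tumor (1.86, adjusted p = 0.0159) in edgeR's test, where a lone tumor is assumed to vary like the WT and PIN libraries. The call was lost without WT 1 (adjusted p = 0.0634), without PIN 1 (0.0513) and without PIN 3 (0.0532) in edgeR's test. It was also lost with the replicate block (0.0807) and with only the 2 groups in the model (0.107). Relative to the summed counts of the 10 endothelial markers, Jag1 had 439 and 265 counts per 1000 in the tumors against 120 to 195 in WT and 143 to 168 in PIN. Without Emcn these were 471 and 287 in the tumors, 144, 643 and 286 in WT and 186 to 207 in PIN, so WT 2 lay above both tumors and WT 3 next to PCa 2. The separation of the tumors from WT in this ratio thus depended on that marker.

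The 4 receptor genes had log2 fold changes above 0, and none was called by edgeR on the trimmed-mean scale. Notch2 was at 67.8 and 80.3 CPM in the tumors, and both values were above every WT and PIN library. Its log2 fold change against WT was 0.77 (SE 0.25, edgeR adjusted p = 0.0952). With total counts Notch2 was called (1.28, adjusted p = 0.0255), in DESeq2 it had 0.79 (adjusted p = 0.0313), under the fold limit, and adjusted p over the alternatives ran to 0.253. Notch1 was at 129.6 and 94.0 CPM, and the second tumor was within the WT range, with a log2 fold change of 0.28 (SE 0.25, adjusted p = 0.511). Notch3 was at 26.1 and 8.57 CPM and Notch4 at 2.80 and 8.37 CPM. The tumors thus had opposite orders for these receptors, each with 1 value inside the WT range, and the log2 fold changes were 1.25 (SE 0.90, adjusted p = 0.413) and 1.06 (SE 1.08, adjusted p = 0.572). With 1 library left out, Notch3 ran from 0.25 (without PCa 1) to 2.32 (without WT 1) and Notch4 from 0.08 (without PCa 2) to 2.06 (without WT 1). Without WT 2 they were 0.74 and 0.50, and Notch1 ran from 0.04 (without PCa 1) to 0.51 (without PCa 2).

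Dll4, a Delta-like ligand gene of growing vessels, was at 4.15 and 4.22 CPM in the tumors, above the highest WT value of 2.97 CPM. The log2 fold change was 1.43 (SE 0.87, edgeR adjusted p = 0.328), and it ran from 0.91 without WT 2 to 2.30 without WT 1 over the 15 alternatives. Per 1000 endothelial marker counts Dll4 had 30.3 and 28.7 counts in the tumors against 22.2, 2.44 and 13.8 in WT and 16.2 to 16.9 in PIN. Without Emcn these were 32.5 and 31.0 in the tumors, 26.4, 8.99 and 20.1 in WT and 19.97 to 21.3 in PIN. Both ratios were higher in each tumor than in each WT and PIN library, and the part of vessels in the Dll4 level was not tested further.

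Jag2 and Dll1 separated the tumors from each other. Jag2 was at 26.3 CPM in PCa 1, inside the WT range, and at 2.74 CPM in PCa 2, below all other libraries. Dll1 was at 6.56 CPM in PCa 1 and at 0.754 CPM in PCa 2. The log2 fold changes against WT were -0.68 (SE 0.79, edgeR adjusted p = 0.624) for Jag2 and -0.40 (SE 0.82, adjusted p = 0.791) for Dll1. With PCa 2 as the only tumor, both were called lower, at -3.07 (adjusted p = 0.0114) and -2.66 (adjusted p = 0.0437), under the same assumption on a lone tumor. With PCa 1 as the only tumor the changes were 0.19 and 0.46, so the direction rested on PCa 2. Counted over the 10 genes, 4 were called with PCa 2 alone, where 18.2% of all genes were, and 1 with PCa 1 alone, where 10.1% were.

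Of the targets, Hes1 was at 50.1 CPM in PCa 1 and 4.83 CPM in PCa 2, against 59.7 to 75.05 CPM over WT and PIN. Both tumors were below the range of the other 6 libraries in CPM, while in TPM PCa 1 at 93.8 was within the WT range of 73.1 to 116. The log2 fold change against WT was -1.26 (SE 0.77, edgeR adjusted p = 0.331), and it was -3.76 (adjusted p = 0.000931) with PCa 2 alone and -0.38 with PCa 1 alone. Hey1 was at 1.26 and 1.61 CPM, both below the lowest WT value of 2.16 CPM, while in TPM PCa 2 at 2.90 was within the WT range of 2.72 to 8.84. Its log2 fold change was -1.31 (SE 0.70, adjusted p = 0.269), and it was -0.67 without WT 1 and -1.57 without WT 3.

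**Figure D3:**
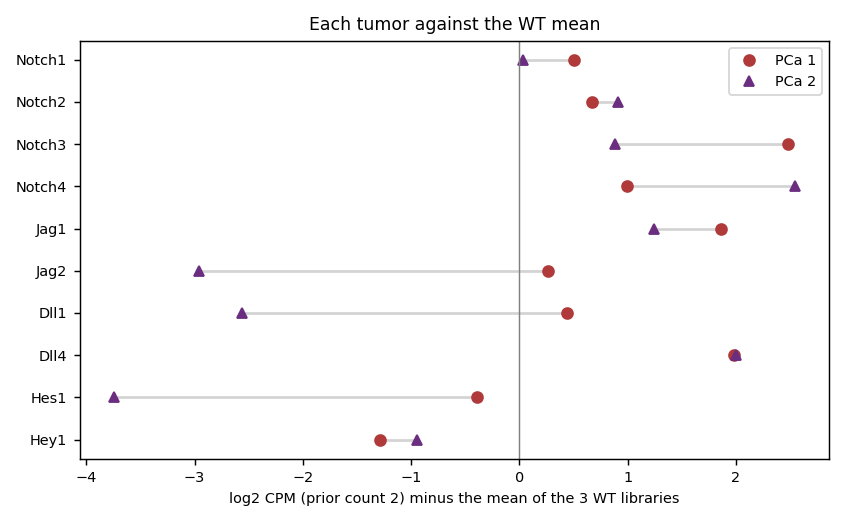
The x axis is the log2 CPM of 1 tumor (prior count 2) minus the mean of the 3 WT libraries, and the rows are the 10 genes. Circles are PCa 1 and triangles PCa 2, and the grey line is their distance. Jag1 is at 1.87 and 1.24, while Hes1 is at -0.39 and -3.74, Jag2 at 0.27 and -2.96 and Dll1 at 0.44 and -2.56.

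The distance between the tumors was over 2-fold for 5 of the 10 genes, where 35.2% of all genes were that far apart. On log2 CPM with a prior count of 2, which shrinks the folds of low genes, Jag2 was 9.36-fold, Dll1 8.01-fold, Hes1 10.2-fold and Notch3 3.03-fold higher in PCa 1, and Notch4 was 2.94-fold higher in PCa 2. Notch1, Notch2, Jag1, Dll4 and Hey1 were within 2-fold. With 1 library each, these distances have no test. The basal markers moved with Jag2, Dll1 and Hes1 between the tumors: 5 of 6 were at their highest of the 8 libraries in PCa 1 and 5 of 6 at their lowest in PCa 2, with Krt5 at 117 and 4.70 CPM and Krt14 at 74.3 and 0.309 CPM. Fibroblast markers summed to 997 TPM in PCa 1 and 450 TPM in PCa 2, leukocyte markers to 160 and 22.4 TPM, and mural markers to 52.5 and 339 TPM. Dcn held 821 and 421 TPM of the fibroblast sums. The distance differed within that list, with Col1a1 at 26.2 and 17.7 TPM and Lum at 91.4 and 1.05 TPM. Of the mural sum in PCa 2, 216 TPM came from Abcc9, and without it, a choice made after its values were seen, the sums were 50.9 and 123 TPM. The part of these cell types in the distance was not tested.

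The third comparison, PCa against PIN, asked what differed between PIN lesions and tumors from mice of the same genotype. In the paper, PCa arose at older ages than PIN. If the ages of these samples differ too, effects of age and of stage cannot be told apart. None of the 10 genes was called by edgeR, where 5.72% of all genes were. Of the 10, 3 had an unadjusted p under 0.05, as had 3205 of all genes, and DESeq2 called 2 (Jag1 and Hey1) and limma-trend 0, where they called 14.1% and 7.18% of all genes. Both tumors were above the PIN range for Notch2, Jag1 and Dll4, where 21.1% of all genes were, and below it for Jag2, Hes1 and Hey1, where 23.2% were. For Jag2 this turned with the scale: PCa 1 was at 26.29 CPM against a lowest PIN value of 26.45 CPM, and at 24.7 TPM it was above the 22.7 to 24.2 TPM of PIN. This comparison shares the tumors with the one against WT, so the values are not separate evidence.

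Jag1 had a log2 fold change of 1.25 against PIN (SE 0.30, edgeR adjusted p = 0.0524) and was not called. It was called with DESeq2 (adjusted p = 0.00299), with total counts (0.0398), without WT 2 (0.0413) and without PCa 2 (0.0342), and adjusted p over the 15 alternatives ran to 0.200. Hey1 had a log2 fold change of -2.24 (SE 0.73, adjusted p = 0.118), with 0.0152 in DESeq2 as the lowest and 0.333 as the highest of the alternatives. The Hey1 values were 2.82 to 9.42 CPM in PIN and 1.26 and 1.61 CPM in PCa, and the counts behind the tumor values were 39 and 47. Notch2 had 0.62 (SE 0.25, adjusted p = 0.191) and Hes1 -1.30 (SE 0.77, adjusted p = 0.361). With PCa 2 as the only tumor, Hes1 at -3.79 (adjusted p = 0.00127), Jag2 at -3.32 (0.0101) and Dll1 at -2.71 (0.0446) were called, in a fit that called 16.6% of all genes. With PCa 1 as the only tumor they were at -0.41 (adjusted p = 0.345), -0.058 (0.958) and 0.41 (0.734). The log2 fold changes of the other members were 0.30 for Notch1, 1.08 for Notch3, 0.36 for Notch4, -0.94 for Jag2, -0.45 for Dll1 and 0.96 for Dll4, with SE of 0.25 to 1.08. Of these, Notch1 was at 0.063 without PCa 1 and 0.53 without PCa 2, Notch3 at 0.084 and 1.70, and Notch4 at 0.96 and -0.62.

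**Figure D4:**
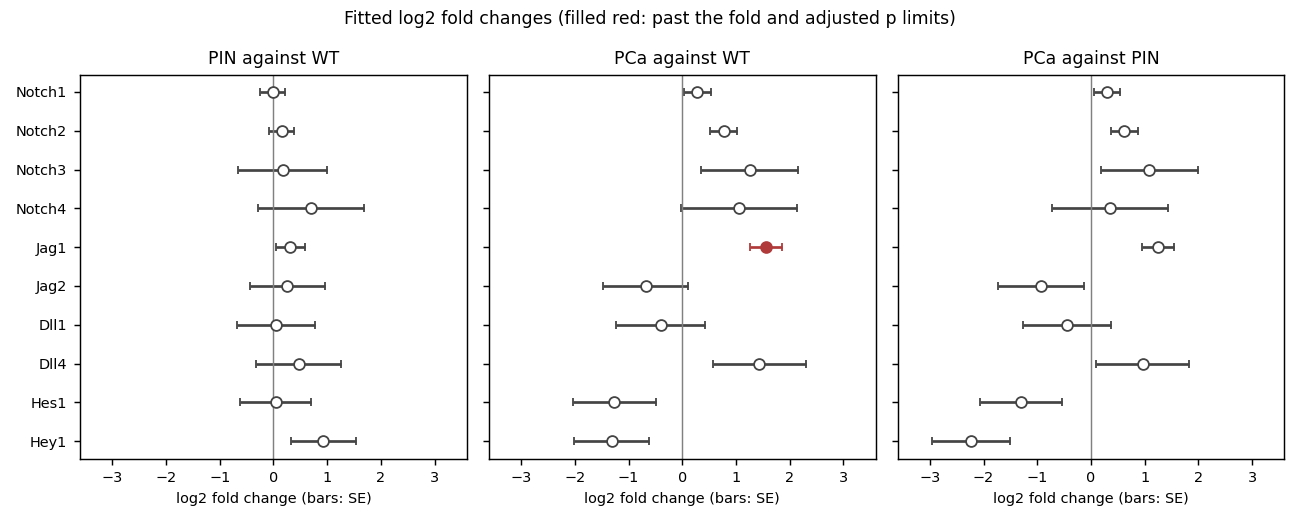
Points are log2 fold changes fitted by edgeR in the 3 comparisons, with bars of 1 SE on the same x axis and the 10 genes as rows. The filled red point is the gene past the fold and adjusted p limits, and open points are not past them. The filled point is Jag1 in PCa against WT at 1.56, and the PIN against WT points lie between -0.02 and 0.93.

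TPM carried no trimmed-mean factor, and these factors were 0.754 to 1.03 in WT and PIN and 1.33 and 1.20 in PCa. Levels of different groups in TPM are therefore not on the scale of the CPM values. Per length, the receptors had 1 order in all 3 groups, Notch1, Notch2, Notch3 and Notch4. In WT the mean levels were 19.7 ± 5.16, 12.7 ± 4.24, 2.89 ± 2.81 and 1.08 ± 1.04 TPM (SD, n = 3). In PIN they were 21.7 ± 4.95, 15.6 ± 2.52, 3.44 ± 0.777 and 1.83 ± 0.233 TPM (SD, n = 3). In PCa they were 30.5 ± 6.04, 27.5 ± 4.04, 8.30 ± 5.76 and 2.72 ± 1.97 TPM (SD, n = 2). The ranges of Notch1 and Notch2 over the libraries overlapped in each group, and those of Notch3 and Notch4 in WT only. Within a library, Notch1 was above Notch2 in all 6 WT and PIN libraries and in PCa 1, and below it in PCa 2, so the overlap in WT and PIN lay between libraries. Notch1 and Notch2 together held most of the receptor TPM in each library, with Notch1 at 40.4 to 63.4% and Notch2 at 33.4 to 46.8%.

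The ligands had Jag2 first in WT and PIN and Jag1 first in PCa. Jag2 was at 18.0 ± 8.72 TPM in WT (SD, n = 3), 23.3 ± 0.860 TPM in PIN (SD, n = 3) and 13.7 ± 15.6 TPM in PCa (SD, n = 2). Jag1 was at 8.90 ± 3.41, 12.2 ± 2.26 and 32.9 ± 9.06 TPM in the same groups. The ranges of Jag2 and Jag1 over the libraries overlapped in WT and did not overlap in PIN or PCa, and Jag2 was above Jag1 within each of the 6 WT and PIN libraries. Dll1 followed at 3.48 ± 0.725 and 4.06 ± 2.26 TPM in WT and PIN and Dll4 at 1.29 ± 1.16 and 1.89 ± 0.205 TPM. In PCa, Dll4 at 4.23 ± 0.164 TPM and Dll1 at 3.32 ± 3.69 TPM overlapped with each other, and Dll4 also with Jag2. As a share of the ligand TPM within a library, Jag1 made up 23.1 to 34.2% over WT and PIN, 53.1% in PCa 1 and 77.4% in PCa 2. Jag2 made up 48.8 to 62.0% over WT and PIN, 33.4% in PCa 1 and 7.83% in PCa 2. The share does not depend on the scaling of the library, and PCa 2 differed from PCa 1 in having little Jag2 beside its Jag1.

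**Figure D5:**
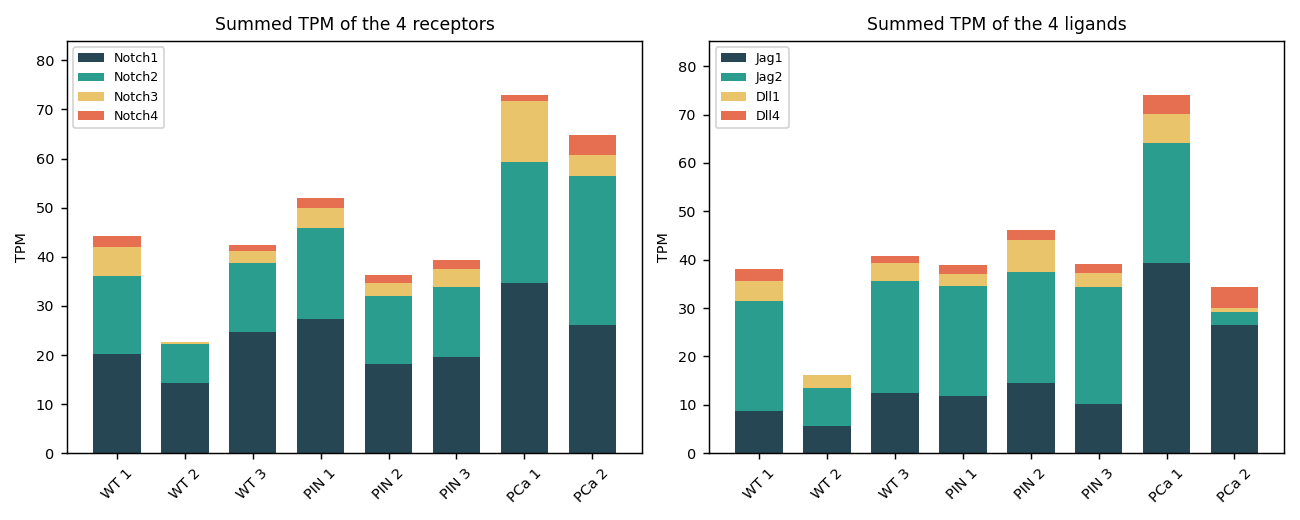
Bars stack the TPM of the 4 receptors (left) and of the 4 ligands (right) in each of the 8 libraries, on linear axes from 0. The receptor sum was 22.7 to 52.0 TPM over WT and PIN and 73.04 and 64.9 TPM in PCa. TPM has no trimmed-mean factor, so heights of different groups are not on the scale of the CPM values. The ligand sum was 16.2 to 46.2 TPM over WT and PIN, 74.1 TPM in PCa 1 and 34.3 TPM in PCa 2, where the Jag2 band is thin.

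Hes1 had the highest mean level per length of the 10 genes in each group, at 98.4 ± 22.5 TPM in WT (SD, n = 3), 113 ± 15.4 TPM in PIN (SD, n = 3) and 51.6 ± 59.6 TPM in PCa (SD, n = 2). Hey1 was far lower, at 4.96 ± 3.37, 10.3 ± 5.12 and 2.54 ± 0.515 TPM, and the ranges of the 2 targets did not overlap in any group. The PCa SD of Hes1 exceeded its mean, with the tumors at 93.8 and 9.41 TPM. In PCa 2 alone, Hes1 was below Notch2 (30.3 TPM), Jag1 (26.5 TPM) and Notch1 (26.2 TPM).

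The wider pathway was followed with 55 further genes in 8 groups, of which 51 were tested. Dll3, Dlk1, Hes5 and Hes7 did not pass the filter, with 18, 16, 1 and 72 counts over all 8 libraries. None of the 51 was called in any comparison by edgeR, where 0, 8.54% and 5.72% of all genes were in the order of the comparisons above. The numbers with an unadjusted p under 0.05 were 0, 12 and 10 in the same order, where all genes had 492, 3866 and 3205. DESeq2 called 0, 4 and 5 of them, where it called 0.278%, 17.7% and 14.1% of all genes. Limma-trend called 0, 1 and 1 of them, where it called 0.00713%, 9.53% and 7.18% of all genes. The median log2 fold changes were 0.05, 0.02 and 0.08, near the medians of all genes at -0.02, 0.01 and 0.07.

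The widest log2 fold changes of these 51 in PCa were those of 2 Deltex genes, which act on receptor turnover, and of Aph1b, a gamma-secretase subunit. Dtx1 was at 4.25, 1.04 and 3.99 CPM in WT, at 2.59, 2.96 and 3.16 CPM in PIN and at 0.225 and 0 CPM in PCa, which is 7 and 0 counts. Its log2 fold change, which depends on the prior count at so few counts, was -4.71 against WT (SE 1.24, edgeR adjusted p = 0.0558) and -4.62 against PIN (SE 1.23, adjusted p = 0.0708). DESeq2 and limma-trend called it in both comparisons. DESeq2 also called Dtx4 against WT (2.41, adjusted p = 0.0411) and Aph1b against PIN (-2.17, adjusted p = 0.0434). Its other calls were Ep300 (1.18) and Tle1 (-1.10) against WT, and Dtx2 (1.34), Ncstn (-1.20) and Ep300 (1.07) against PIN. Dtx4 was at 4.43 to 13.8 CPM in WT, 5.76 to 26.0 CPM in PIN and 77.4 and 12.2 CPM in PCa, so the value of PCa 1 stood out, with log2 fold changes of 2.39 (adjusted p = 0.149) and 1.82 (adjusted p = 0.290). Aph1b was at 9.04 and 0.754 CPM in PCa against 11.2 to 15.8 CPM in WT and 17.2 to 25.6 CPM in PIN, with log2 fold changes of -1.52 (adjusted p = 0.283) and -2.18 (adjusted p = 0.186). With PCa 2 as the only tumor, the changes of Aph1b were -4.20 and -4.85. In PIN against WT the widest were Hey2 at -1.93, Mfng, a Fringe glycosyltransferase, at -0.85, and Aph1c at 0.70, each with an adjusted p of 1. Hey2 had 1 high library, WT 2, at 6.39 CPM against 0.329 to 0.829 CPM in the other WT and PIN libraries.

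By role, the gamma-secretase, ADAM and furin proteases had 4 of 10 tested members higher and 6 lower in PCa against WT, with 2 above and 4 below the WT range in both tumors. Over all genes, 50.6% were higher, 17.7% were above the WT range and 19.6% below it. The co-repressor genes had 7 of 10 higher, with 3 above and 2 below the range. The nuclear complex around RBPJ had 4 of 9 higher, with 2 above and 1 below. Receptor turnover had 2 of 8 higher, with 0 above and 1 below. Glycosylation had 3 of 5 higher, with 0 above and 1 below, and ligand trafficking 3 of 4, with 1 above and 1 below. Dlk2, the only other ligand tested, was at -1.51. The other tested targets were Hes6, Hey2, Heyl and Nrarp, with log2 fold changes of 0.37 (SE 0.41), -0.80 (SE 1.31), 0.86 (SE 0.75) and 1.37 (SE 0.66) against WT. Nrarp, a target that feeds back on the Notch complex, was at 9.07 and 5.76 CPM in PCa against 1.13 to 5.64 CPM in WT and 2.75 to 3.62 CPM in PIN (edgeR adjusted p = 0.226). The targets did not share 1 direction in the tumors: in CPM, Hes1 and Hey1 were below the WT range and Nrarp was above it, and none was called.

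The genes whose pattern over the 8 libraries was nearest to each of the 10 were found among all genes tested by the root mean square difference of centred log2 CPM. They were Hk1 for Notch1 (0.10), Isoc1 for Notch2 (0.11), Aplnr for Notch3 (0.37), Clec14a for Notch4 (0.43), Osbpl1a for Jag1 (0.19), Trpv2 for Jag2 (0.16), Fgf9 for Dll1 (0.25), Myct1 for Dll4 (0.21), Pfkfb4 for Hes1 (0.15) and Stk32c for Hey1 (0.40). Each is the nearest of 14024 genes over 8 libraries and carries no test.

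Genes on the opposite strand overlapped Notch1, Notch3, Dll1 and Dll4, and the strand setting of the counting is not given in the sources used here. The overlapping genes had at most 94 counts beside Notch1, whose lowest count was 1812. They had at most 13 beside Notch3 (lowest 24), 52 beside Dll1 (lowest 22) and 32 beside Dll4 (lowest 4), so for these 3 genes reads of the neighbour cannot be told apart at low counts if strand was not used. Notch2, Notch4, Jag1, Jag2, Hes1 and Hey1 had no overlapping gene.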

How the data were processed

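RNA of 8 mouse prostate tissues (3 WT, 3 PIN, 2 PCa) was extracted with the RNeasy kit and made into libraries with the Kapa RNA HyperPrep kit with RiboErase. The authors trimmed paired-end reads with cutadapt (v1.9.1), aligned them to mm9 with HISAT2 (2.1.0) and counted them per gene with HTSeq (v0.6.1), and the deposited values are raw counts per gene without normalization. Gene spans and summed exon lengths are those of the deposited table, and the spans of all 10 genes equalled GENCODE M1 (NCBIM37).

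The test was run with edgeR 4.0.16 in R 4.3.3. A gene was kept if over 1 CPM in 2 or more samples (14034 genes), TMM factors were used, and all 8 libraries were fitted in 1 model of 3 groups with 5 residual degrees of freedom. P-values were adjusted over all tested genes by Benjamini-Hochberg. TPM used the exon lengths and no TMM factor. The rule for named genes was all 10 genes in each comparison, of the other pathway genes those called or else the 3 with the widest log2 fold change, and the nearest gene to each of the 10. The other tested targets were added as a whole list, and so were the other pathway genes that DESeq2 called. Alternatives were upper-quartile scaling, total counts, DESeq2 1.42.0, limma-trend 3.58.1, no filter, the replicate block, 2 groups only and each library left out. The genes and lists were chosen with earlier results of these data known. The fits were tested on simulated data. No pair of replicates agreed within sampling noise. Exact Poisson 95% intervals were given for the WT 2 counts of Notch3, Notch4 and Dll4 and cover counting error only.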

Additional observations from a re-analysis of the deposited data

How the results depend on the processing

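Over 450 alternative values of the members' log2 fold changes, 413 kept their direction and side of the threshold, 20 reversed, 12 moved past the threshold and 5 moved back. The members called in PCa against WT were 1, and became 2 with total counts, 0 with the replicate block, 0 with only the 2 groups and 0 to 4 with 1 library left out, settings that called 17.1%, 2.94%, 0.952% and 2.48% to 18.2% of all genes against 8.54%. In PCa against PIN they were 0, and became 1 with total counts, 2 with DESeq2 and 0 to 3 with 1 library left out, which called 7.89%, 14.1% and 0.557% to 16.6% of all genes against 5.72%. The other pathway genes called were 0 in PCa against WT, and became 8 with total counts, 4 with DESeq2, 1 with limma-trend and 0 to 8 with 1 library left out, where DESeq2 called 17.7% and limma-trend 9.53% of all genes. In PCa against PIN they were 0, and became 2, 5, 1 and 0 to 10 under the same settings, where limma-trend called 7.18% of all genes. The cause was not tested.

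Reversed values in PIN against WT were Notch1 at 0.033 with upper-quartile scaling and 0.17 with total counts, and Dll1 at -0.069 with limma-trend. In PCa against WT, Dll1 was at 0.19 with total counts. With 1 library left out, the log2 fold changes in PIN against WT ran from -0.22 to 0.11 for Notch1, -0.0082 to 0.32 for Notch2, -0.34 to 1.24 for Notch3, -0.034 to 0.45 for Jag2, -0.47 to 0.29 for Dll1, -0.06 to 1.33 for Dll4 and -0.043 to 0.10 for Hes1. In PCa against WT they ran from -3.07 to 0.19 for Jag2 and -2.66 to 0.46 for Dll1, and in PCa against PIN from -0.62 to 0.96 for Notch4 and -2.71 to 0.41 for Dll1.

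The replicate block changed the call of 1 member, Jag1 in PCa against WT (1.61, edgeR adjusted p = 0.0807). Same-numbered libraries correlated at -0.056 to 0.284 in their deviations from the group means, and differently numbered ones at -0.284 to 0.164. With 2 tumors the deviations of PCa mirror each other, so these values cannot decide whether the numbers pair the samples. Mean TPM of the members moved by less than 1 SD in each group when 9530053A07Rik, the gene with the most counts in WT and PIN, was left out, except Jag2 in PIN, which went from 23.3 to 24.3 TPM. The fold of a gene with a library near 0 depends on the prior count, and 2 tumors limit what each comparison with PCa can show.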
